A study of Mus musculus with 75 samples.

Results

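Of the 55291 mouse genes in the count table, 10 genes of cell-cell junctions were followed across 5 groups of single cochlear cells. They were listed by name and not by their values: the classical cadherins Cdh1 and Cdh2, the nectins Nectin1, Nectin2 and Nectin3, the tight junction genes Cldn9, Cldn14, Marveld2 and Ildr1, and Epcam. All 10 had a row in the table, and all 10 reached a mean of 10 CPM (reads of a gene per 1000000 counted reads) in at least 1 group, the level set for the 12104 genes compared here. The questions were which cadherin each group carried, and how far cells made from supporting cells resembled wild-type outer hair cells in their junction genes.

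The libraries came from 75 cells picked by hand and amplified with a Smart-Seq kit, all from mice on a C57BL/6 background. The 17 WT_P30 outer hair cells (OHCs) were Tdtomato+ cells of Slc26a5 CreER/+; Ai9/+ mice that received tamoxifen at P20 and P21, so 1 copy of the prestin gene Slc26a5 carries CreER in them. The 16 WT_P60 supporting cells (SCs) were Tdtomato+ cells of Fgfr3-iCreER+; Ai9/+ mice given tamoxifen at P30 and P31, mainly pillar and Deiters' cells. The other 42 were Tdtomato+ cells at P60 from Fgfr3-Atoh1-Ikzf2-DTR mice, which carried Fgfr3-iCreER+, the transgene CAG-LSL-Atoh1+, an Ikzf2 cassette at 1 Rosa26 allele (Rosa26 CAG-LSL-Ikzf2/+) and Slc26a5 DTR/+. Tamoxifen on days P30 and P31 switched on Atoh1 and Ikzf2 in Fgfr3-expressing cells, and diphtheria toxin at P36 killed the OHCs, which carried its receptor. The study had divided the 42 cells by their own reads into 11 OHC-like cells (Myo7a+/Prestin+), 16 nascent hair cells (HCs; Myo7a+/Prestin-) and 15 SCs failing to become HCs (Myo7a-/Prestin-). The WT_P30 OHCs therefore differed from all other groups in age, Cre driver and library series at once, and these cannot be told apart. The 42 cells differed from the WT_P60 SCs in added Atoh1 and Ikzf2, Slc26a5 DTR/+, the Tdtomato source and library series at once. They also differed in diphtheria toxin with the loss of OHCs, and none of these can be told apart either.

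Hair cells and supporting cells form a mosaic sheet held together at the apical surface by adherens and tight junctions. E-cadherin, the product of Cdh1, is known from the outer hair cell region of the organ of Corti, and N-cadherin, the product of Cdh2, from the inner hair cell region. Nectins are immunoglobulin-type adhesion molecules that bind across the gap between unlike cells: nectin-1 is known from hair cells and nectin-3 from supporting cells, and their pairing helps to set up the checkerboard pattern. Claudins seal the tight junction between 2 cells, while tricellulin (Marveld2) and its partner Ildr1 sit where corners of 3 cells meet. Loss of Cldn9, Cldn14, Marveld2 or Ildr1 causes deafness. Epcam is an adhesion molecule of the lateral membrane of epithelia.

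Total counts per cell lay between 4264780 and 22934062, with group medians from 5967740 in the WT_P30 OHCs to 11377700 in the nascent HCs. The median number of genes at or above 1 CPM was 4777 in the WT_P30 OHCs, 6872 in the WT_P60 SCs and 8488 in the OHC-like cells. Each library is 1 cell and no label names the mouse it came from, so each group counts as 1 sample. No p-value was computed, ± marks the SD over cells as a spread, and a gene is called higher or lower where group means differ by more than 4-fold. Intervals of shares (exact Clopper-Pearson, 95%) cover the counting of cells only. They treat the cells of a group as independent, although the mice are not named. A group with no read of a gene is set at 3 counts per library (0.415 CPM in the WT_P60 SCs and 0.429 CPM in the WT_P30 OHCs), and its folds are bounds.

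The markers of the groups followed their labels in part. The study had sorted the Fgfr3-Atoh1-Ikzf2-DTR cells by their own Myo7a and Slc26a5 reads. Differences in these genes among those cells were thus set by the sorting and are no check of the labels. The summed level of OHC markers holds both genes, so it is not an independent check there either. The summed level of 5 OHC markers (Slc26a5, Ocm, Myo7a, Espn and Tmc1) had a median of 30581 CPM in the WT_P30 OHCs, 1696 CPM in the OHC-like cells and 1107 CPM in the nascent HCs, and at most 0.294 CPM in any WT_P60 SC. Ocm alone had a median of 26530 CPM in the WT_P30 OHCs and 288 CPM in OHC-like cells. Slc26a5, Ocm and Tmc1 were lower in OHC-like cells than in the OHCs. Myo7a and Espn were not, with medians of 675 and 695 CPM in OHC-like cells against 520 and 529 CPM. Espn, an actin-bundling hair cell protein, had a median of 187 CPM in the SCs failing to become HCs although Myo7a was at a median of 0 there. Tmc1, a mechanotransduction channel subunit, was at a median of 0 in all 3 groups of Fgfr3-Atoh1-Ikzf2-DTR cells. Otof, listed as an inner hair cell marker, had a median of 405 CPM in the WT_P30 OHCs. Slc17a8, the other inner hair cell marker listed, had a median of 0 there and was detected in 2 of the 17 cells. The summed level of 7 SC markers had a median of 5947 CPM in the WT_P60 SCs, 1511 in SCs failing to become HCs, 386 in nascent HCs, 394 in OHC-like cells and 0 in the WT_P30 OHCs. The summed markers of endothelium, macrophages, fibroblasts, neurons and blood had a median of 0 in all groups but for 19.8 CPM of 3 endothelial genes in the WT_P60 SCs, where they reached 292 CPM with Cdh5 at 0. The highest summed values were 37.8 CPM for macrophages, 26.8 for fibroblasts, 197 for neurons and, in 1 OHC-like cell, 2485 for blood. OHC-like cell 4 stood apart: it had 3348 genes at or above 1 CPM, against 7158 to 9654 in the other 10 OHC-like cells, so values that rest on it are also given without it.

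Cdh1 was not detected in the WT_P30 OHCs and was present in nearly all other cells. Not a single read of Cdh1 was counted in the 17 WT_P30 OHCs, which by the counting of cells allows a share of up to 19.5%. The Poisson limit on the pooled reads was 0.0303 CPM. That limit covers the counting of reads only and treats them as independent, although they come from amplified RNA. It leaves out RNA lost before sequencing, so it does not bound the level of Cdh1 in these cells. The gene (ENSMUSG00000000303.12) lies on GRCm38 chr8:106603351-106670246, plus strand, with 4.574 kb of exons. In the 16 WT_P60 SCs its level ran from 6.53 to 226 CPM with a median of 78.0 and a mean of 87.8 ± 66.5. All 16 of them were at or above 1 CPM, and they stayed so when every cell was thinned to 4264780 reads. The WT_P30 OHCs also had the fewest genes per library, and the part of this in their low values was not tested.

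The 3 groups of Fgfr3-Atoh1-Ikzf2-DTR cells had higher means of Cdh1 than the WT_P60 SCs. The SCs failing to become HCs lay between 0 and 538 CPM, with a median of 174 and a mean of 245 ± 166. Nascent HCs lay between 49.9 and 1923 CPM, with a median of 444 and a mean of 505 ± 435. OHC-like cells lay between 200 and 1064 CPM, with a median of 357 and a mean of 432 ± 282. The order of means was thus nascent HCs, OHC-like cells, SCs failing to become HCs, WT_P60 SCs and WT_P30 OHCs, and the cells of each of the first 4 groups overlapped those of its neighbour in that order.

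Against the WT_P60 SCs, the log2 fold of Cdh1 was 2.30 in OHC-like cells, 2.52 in nascent HCs and 1.48 in SCs failing to become HCs. Scaled by TMMwsp factors in place of TMM, the OHC-like value was 1.97 and no longer past the threshold. Against the WT_P30 OHCs, the OHC-like cells exceeded them in Cdh1 by at least 1007-fold, and every OHC-like cell lay above every OHC. Within the library series that held both, the OHC-like to nascent log2 fold lay between -1.43 and 0.38, so neither group was higher throughout.

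Cdh2 (ENSMUSG00000024304.14, 8.066 kb of exons) showed a different distribution. No read of it was found in the 16 WT_P60 SCs, and a single read in the 17 WT_P30 OHCs. Among the SCs failing to become HCs, 10 of 15 were at or above 1 CPM (66.7%, 38.4 to 88.2), and the group ran from 0 to 76.9 CPM with a median of 6.97 and a mean of 15.0 ± 22.0. Among the nascent HCs 5 of 16 were (31.2%, 11.0 to 58.7), and the group ran from 0 to 273 CPM with a median of 0.0321 and a mean of 49.1 ± 90.5.

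The OHC-like cells had almost none: 26 reads in all, of which 25 were in cell 10, at 2.82 CPM. With their mean set at the floor of 3 counts, Cdh2 was lower than in nascent HCs by a log2 fold of -7.12, and lower than in SCs failing to become HCs by -5.41. All 5 nascent HCs with Cdh2 were at 70.3 CPM or more, and the other 11 were under 1 CPM. By library series, the nascent HCs with Cdh2 were 1 of 6 beside 5 OHC-like cells, 1 of 4 beside 3, and 3 of 4 beside 2. These are few cells, and the part of the library series in the difference was not tested. Against WT_P60 SCs, where it was at 0, Cdh2 was at least 118-fold higher in nascent HCs and at least 36.1-fold higher in SCs failing to become HCs.

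Between the 2 cadherins, per kb of exon, Cdh1 was the higher one in every cell that held either at 1 CPM or more. This was so in 16 of 16 WT_P60 SCs, 14 of 15 SCs failing to become HCs, 16 of 16 nascent HCs and 11 of 11 OHC-like cells. The 1 exception, among the SCs failing to become HCs, had no read of either. Even in the cell where they came closest, nascent HC 7, Cdh1 was at 121 and Cdh2 at 31.3 CPM per kb, a ratio of 3.86. The median log2 ratio of Cdh1 to Cdh2, on CPM per kb with a pseudocount of 1, was 6.31 in OHC-like cells, 5.03 in nascent HCs, 4.96 in SCs failing to become HCs and 4.16 in WT_P60 SCs. Ratios with Cdh2 at 0 depend on the pseudocount: at 0.1 those medians were 9.26, 8.31, 5.67 and 7.40, which moves the WT_P60 SCs above the SCs failing to become HCs.

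**Figure D1:**
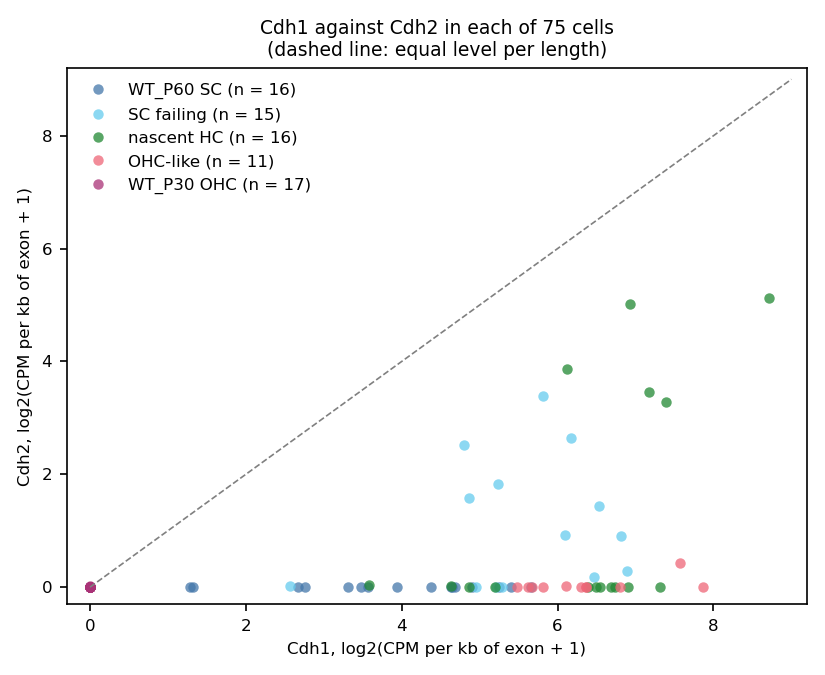
Each point is 1 of 75 cells, with Cdh1 on the x axis and Cdh2 on the y axis, both as log2 of CPM per kb of exon plus 1, and the dashed line marks equal levels per length. Cells with both genes, 10 SCs failing to become HCs, 5 nascent HCs and 1 OHC-like cell, lie below the line, and the 17 WT_P30 OHCs sit at or next to the origin.

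The nectins separated the groups as well. Nectin1 (ENSMUSG00000032012.8, chr9:43743984-43807461, plus strand) had no read in the 16 WT_P60 SCs. In the SCs failing to become HCs it was found at 1 CPM or more in 5 of 15 cells, with a highest value of 41.2 CPM and a median of 0. In nascent HCs it was found in 13 of 16, with values from 0 to 60.2 and a median of 22.5 CPM, and in 11 of 11 OHC-like cells, from 5.85 to 305 with a median of 20.2 CPM. The cells of the OHC-like group thus lay entirely above those of the WT_P60 SCs. Yet only 1 of 17 WT_P30 OHCs had Nectin1, at 19.4 CPM, and that cell held 154 of the 155 reads of the group.

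The mean of the OHC-like cells, 46.1 ± 86.2 CPM, rested on cell 4, the library that stood apart, at 305 CPM. Without it the mean of the other 10 was 20.2 CPM, below the 22.7 ± 19.0 CPM of the nascent HCs. Against the WT_P60 SCs Nectin1 of OHC-like cells was higher by at least 111-fold, a log2 fold of 6.79 with cell 4 and 5.60 without it. Against SCs failing to become HCs the log2 fold of 2.53 fell to 1.34 without cell 4, and within the library series that held both groups it was -0.0019 (1 OHC-like cell and 4 others) and -0.68 (2 and 1). Against the WT_P30 OHCs it was 5.32, and 4.13 without cell 4. Leaving out OHC 17, the single OHC that had the gene, gave 6.74 with the OHCs at the floor. Between OHC-like cells and nascent HCs it was 1.02, and -0.17 without cell 4.

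Nectin2 (ENSMUSG00000062300.14, chr7:19716644-19750483, minus strand) was present in every group. Its exons overlap those of Gm20512 on the other strand, and whether counting used the strand is not stated, so the reads of both cannot be told apart. Group means were 53.5 ± 37.3 CPM in WT_P60 SCs, 235 ± 197 in SCs failing to become HCs, 166 ± 91.1 in nascent HCs, 181 ± 124 in OHC-like cells and 52.5 ± 95.8 in WT_P30 OHCs. The cells of the groups overlapped throughout. The mean of SCs failing to become HCs was higher than that of WT_P60 SCs by a log2 fold of 2.13, just past the threshold. It was 1.92 with unscaled library sizes, 1.96 without cell 2 and 1.98 without cell 13 of the former. In the WT_P30 OHCs 9 of 17 cells were at 1 CPM or more, and without OHC 10, at 388 CPM, the mean of the group was 31.6. The OHC-like log2 fold over them was 1.79, and 2.52 without that OHC.

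Nectin3 (ENSMUSG00000022656.15, chr16:46387706-46498525, minus strand), the nectin known from supporting cells, was detected in 15 of 16 WT_P60 SCs, 15 of 15 SCs failing to become HCs, 16 of 16 nascent HCs and 10 of 11 OHC-like cells. It was detected in only 5 of 17 WT_P30 OHCs (29.4%, 10.3 to 56.0). WT_P60 SCs lay between 0.440 and 486 CPM with a median of 105, and WT_P30 OHCs between 0 and 263 with a median of 0. The log2 fold of means was -2.11, at the edge of the threshold: it was -1.74 with DESeq2 size factors, -2.74 without WT_P30 OHC 2, and -1.98, -1.92 and -1.99 without WT_P60 SC 3, 13 or 16. OHC-like cells, from 0.507 to 322 CPM with a median of 150, differed from the WT_P60 SCs by a log2 fold of -0.22. Their log2 fold over the WT_P30 OHCs was 1.89, and it passed 2 without any 1 of 6 cells: 2.03 and 2.01 without OHC-like cell 4 or 11, and 2.53, 2.21, 2.02 and 2.10 without OHC 2, 10, 11 or 17.

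Nectin1 and Nectin3 were detected together in 10 of 11 OHC-like cells and 13 of 16 nascent HCs, in 5 of 15 SCs failing to become HCs, in 1 of 17 WT_P30 OHCs and in 0 of 16 WT_P60 SCs. Per kb of exon, Nectin3 was the higher of both in 9 OHC-like cells and 14 nascent HCs, and Nectin1 in 2 of each. These cells thus held the nectin known from hair cells beside the one known from supporting cells.

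**Figure D2:**
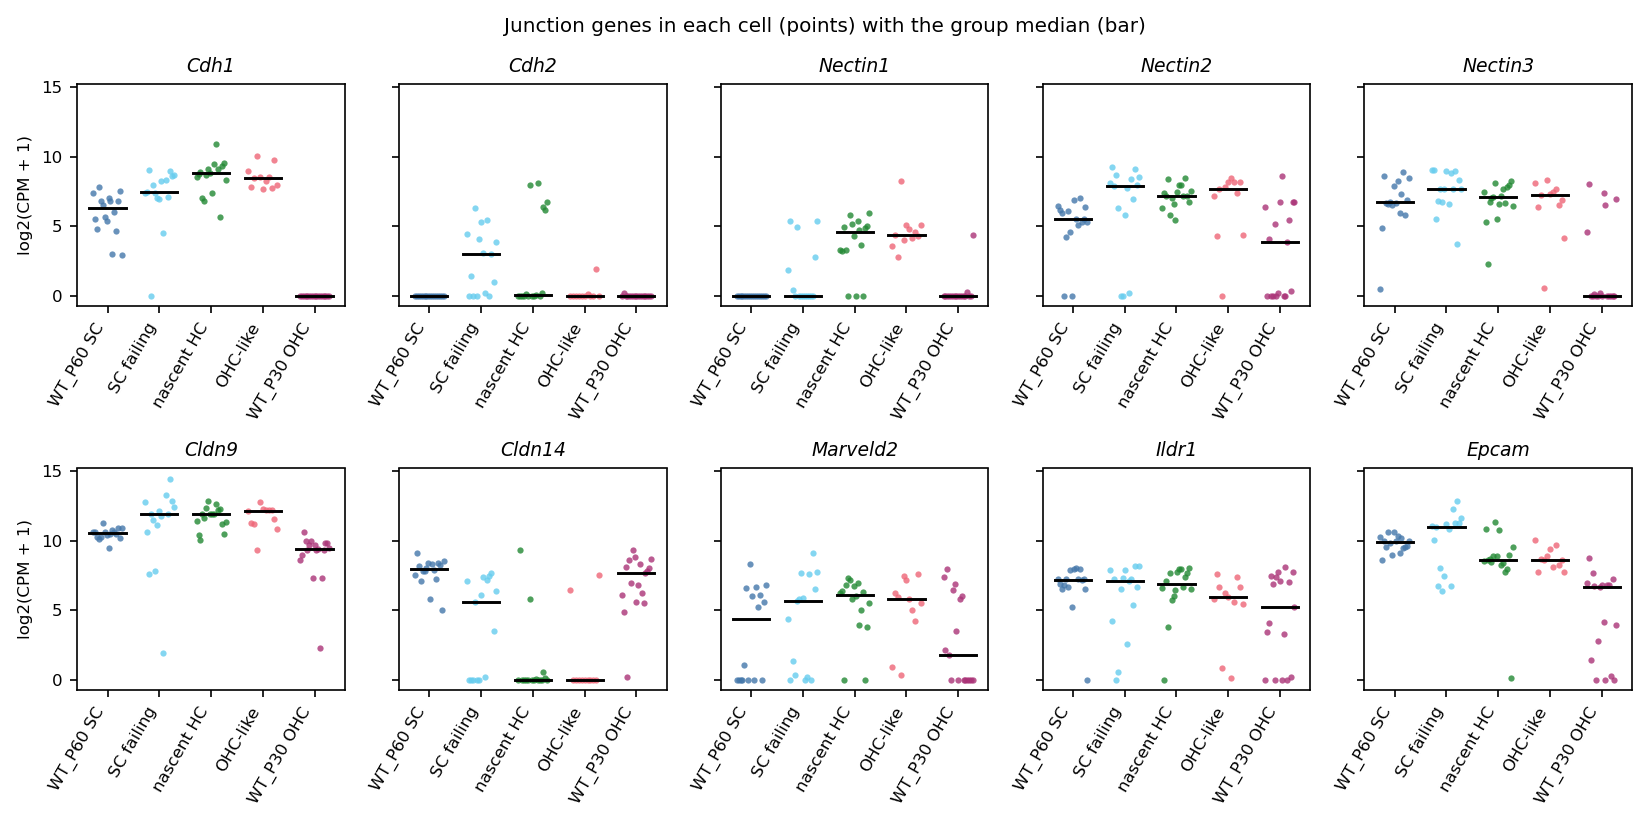
Each panel is 1 gene, each point 1 cell as log2 of CPM plus 1, and each bar the median of a group. Cdh1 is at 0 in all 17 WT_P30 OHCs, Nectin1 is at 0 in all 16 WT_P60 SCs, and Cldn14 is at or under 1 CPM in 14 of 16 nascent HCs and 9 of 11 OHC-like cells.

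Cldn14 was the tight junction gene in which OHC-like cells differed from both wild-type groups. It was detected in 16 of 16 WT_P60 SCs and in 16 of 17 WT_P30 OHCs, whose cells overlapped: 31.2 to 558 CPM with a median of 248 in the SCs, and 0.158 to 656 CPM with a median of 200 in the OHCs. Their means, 252 ± 129 and 218 ± 185 CPM, gave a log2 fold of -0.21, which was 0.24 with DESeq2 size factors. In the Fgfr3-Atoh1-Ikzf2-DTR cells its reads reached 1 CPM in 9 of the 15 SCs failing to become HCs (60.0%, 32.3 to 83.7), in 2 of 16 nascent HCs (12.5%, 1.55 to 38.3) and in 2 of 11 OHC-like cells (18.2%, 2.28 to 51.8). Every one of the 3 groups overlapped both wild-type groups.

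In the OHC-like cells the 2 cells with Cldn14 were cell 1 at 88.6 CPM and cell 11 at 188 CPM, and the other 9 had no read. The nascent HCs with it were cell 2 at 631 CPM and cell 7 at 54.4 CPM. Nascent HC 2 alone held 92.0% of the summed level of its group, whose mean of 42.9 CPM was 3.67 without it. The SCs failing to become HCs had a median of 47.3 and a highest value of 205 CPM, with a mean of 69.3 ± 77.0.

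Against the WT_P60 SCs, the log2 fold of Cldn14 was -3.33 in OHC-like cells and -2.56 in nascent HCs, and without nascent HC 2 the latter was -6.10. In SCs failing to become HCs it was -1.86, short of the threshold, and it passed at -2.01 with unscaled library sizes, and at -2.01, -2.04 and -2.08 without cell 9, 12 or 13 of that group. OHC-like cells were below the WT_P30 OHCs by -3.12. Without OHC-like cell 11 their log2 folds were -4.62 against the OHCs and -4.83 against the WT_P60 SCs. Between OHC-like cells and nascent HCs the fold was -0.77, -2.28 without OHC-like cell 11, and 2.77 without nascent HC 2, so these 2 groups could not be put in order. Against SCs failing to become HCs it was -1.46, -2.97 without OHC-like cell 11, and 1.35 and 0.17 within the library series that held both. The 10 SCs failing to become HCs of 1 library series held 7 of the 9 cells with Cldn14, and the 3 OHC-like cells and 4 nascent HCs of another held none. The part of the library series in these shares was not tested.

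RefSeq lists 3 start sites of Cldn14 (ENSMUSG00000047109.13, chr16:93919031-94008837, minus strand). The window of one of them is shown, as Cldn14 was the 1 member with a match to the E-box CAGCTG. Atoh1 is a factor that binds E-boxes, and whether it acts on Cldn14 was not tested. The window runs from 250 bases before to 50 bases after the start site, on GRCm38.p6 chr16:93929768-93930067, minus strand, with the E-box CAGCTG in capitals, which begins 6 bases after the first base of the transcript.
Cldn14: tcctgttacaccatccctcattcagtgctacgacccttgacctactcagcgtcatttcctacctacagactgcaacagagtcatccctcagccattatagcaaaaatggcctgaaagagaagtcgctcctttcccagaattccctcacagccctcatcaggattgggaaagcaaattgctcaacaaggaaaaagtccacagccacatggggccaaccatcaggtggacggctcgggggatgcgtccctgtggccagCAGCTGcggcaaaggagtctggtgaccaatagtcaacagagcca
This E-box reads the same on both strands and was found in 5355 of all 32851 windows of that length (16.3%). A neighbouring Cldn14 window overlaps this one and holds the same site, and the third has no match. Of the members, 6 had windows, 9 in all, and Nectin2, Nectin3, Marveld2, Ildr1 and Epcam had no match in theirs. A match of these letters is a description of the window and not a binding site.

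Cldn9 (ENSMUSG00000066720.7, chr17:23682584-23684026, minus strand, a single exon) had the highest level per kb of all 10 genes in each of the 5 groups. It was read in every cell, so the groups differed in amount alone. Its level ran from 718 to 2495 CPM in WT_P60 SCs (median 1497, mean 1512 ± 410), and from 3.94 to 1595 CPM in WT_P30 OHCs (median 684, mean 682 ± 382). OHC-like cells ran from 657 to 7119 CPM (median 4435, mean 3745 ± 1828), and nascent HCs from 1045 to 7355 CPM (median 3865, mean 3684 ± 1784).

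The SCs failing to become HCs had the widest range of Cldn9, from 2.77 to 22696 CPM, with a median of 3889 and a mean of 5030 ± 5656. Their cell 13 held 30.1% of the summed level, and without it the mean was 3769 CPM, next to the OHC-like cells and nascent HCs. OHC-like cells were above the WT_P30 OHCs by a log2 fold of 2.46 and above the WT_P60 SCs by 1.31, and with DESeq2 size factors the former was 1.85. The OHC-like and nascent groups differed by a log2 fold of 0.02.

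Of the 10 genes, the tricellular junction genes Marveld2 and Ildr1 differed least between group means. Marveld2 (ENSMUSG00000021636.15, chr13:100595957-100616971, minus strand) was detected in 9 of 16 WT_P60 SCs, 10 of 15 SCs failing to become HCs, 14 of 16 nascent HCs, 9 of 11 OHC-like cells and 9 of 17 WT_P30 OHCs. Its means lay between 44.2 CPM in WT_P30 OHCs and 95.4 CPM in SCs failing to become HCs, and no comparison passed the threshold. Medians over cells were further apart, at 2.52 CPM in WT_P30 OHCs, 19.3 in WT_P60 SCs, 48.8 in SCs failing to become HCs, 55.7 in OHC-like cells and 68.7 in nascent HCs. On medians, the OHC-like to OHC log2 fold was 4.47 in place of 0.70. The fold between the wild-type groups, -0.25, turned to 0.35 without WT_P60 SC 8 and to 0.19 with DESeq2 size factors, and that of OHC-like cells over SCs failing to become HCs, -0.41, turned to 0.19 without cell 13 of the latter.

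Ildr1 (ENSMUSG00000022900.14, chr16:36693978-36726804, plus strand) was detected in 15 of 16 WT_P60 SCs, 13 of 15 SCs failing to become HCs, 15 of 16 nascent HCs, 9 of 11 OHC-like cells and 12 of 17 WT_P30 OHCs. Its means were 144 ± 76.8, 128 ± 104, 136 ± 84.8, 76.6 ± 60.8 and 88.2 ± 95.1 CPM in that order, and its log2 folds over the 7 comparisons lay between -0.91 and -0.09. The cells of all groups overlapped. All 4 tight junction genes were detected together in 8 of 16 WT_P60 SCs, 6 of 15 SCs failing to become HCs and 5 of 17 WT_P30 OHCs, but in 1 of 16 nascent HCs and 1 of 11 OHC-like cells. Cldn9, Marveld2 and Ildr1, with Cldn14 left aside, were found together in 13 of those 16 and 8 of those 11.

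Epcam (ENSMUSG00000045394.9, chr17:87635979-87651129, plus strand) followed a graded order of means. It was highest in the SCs failing to become HCs at 2046 ± 2054 CPM (81.5 to 7466, median 2003), and next in the WT_P60 SCs at 952 ± 359 CPM (389 to 1604, median 953). Nascent HCs had 685 ± 713 CPM (0.11 to 2557, median 400) and OHC-like cells 476 ± 269 CPM (216 to 1053, median 395). WT_P30 OHCs were lowest at 87.6 ± 110 CPM (0 to 432, median 100.1), and 13 of 17 had it at 1 CPM or more. Neighbours in this order overlapped.

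The log2 fold of Epcam was -3.44 between WT_P30 OHCs and WT_P60 SCs. In OHC-like cells it was 2.44 above the OHCs, and 1.94 with DESeq2 size factors. It was -2.10 below the SCs failing to become HCs, and -1.95 or -1.80 without cell 11 or 13 of the latter. Within library series that fold was -0.32 (1 OHC-like cell and 4 others) and -3.38 (2 and 1).

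**Figure D3:**
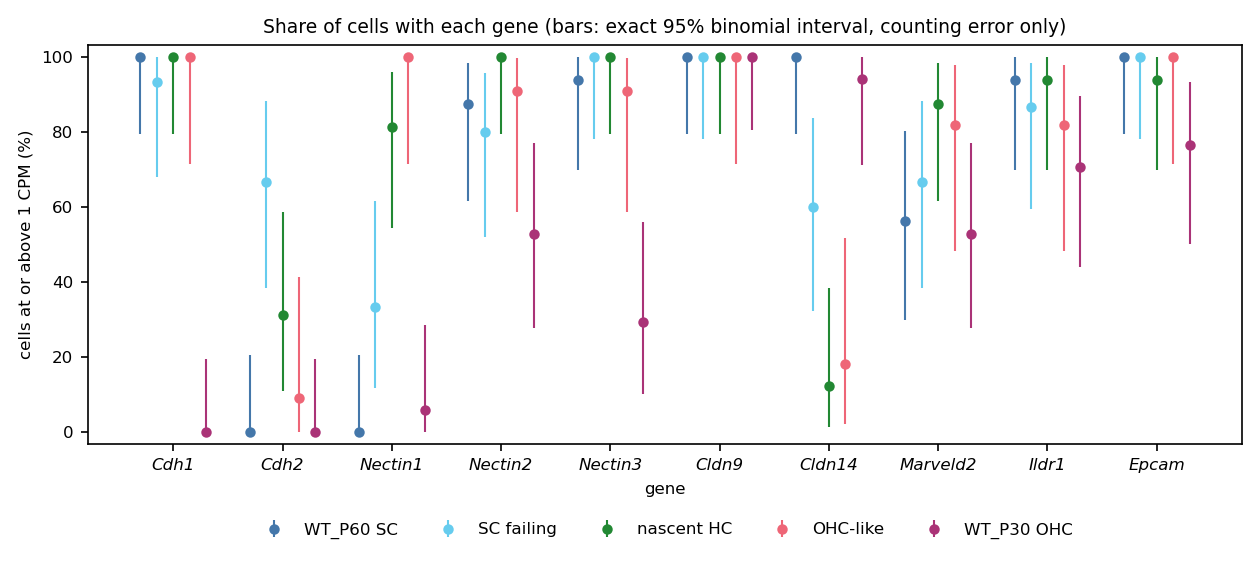
The y axis is the percent of cells of a group at or above 1 CPM for each gene on the x axis, with exact 95% binomial intervals that cover the counting of cells only. Nectin1 rises from 0 of 16 WT_P60 SCs to 11 of 11 OHC-like cells, Cldn14 drops to 2 of 11, and Cdh2 is most frequent in SCs failing to become HCs (10 of 15).

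Counted over the list, WT_P30 OHCs were lower than WT_P60 SCs in 3 of the 10 genes (Cdh1, Nectin3 and Epcam) and higher in 0, while 21.8% of all 12104 genes were lower and 15.1% higher. Cdh1 was the 1 gene of the list whose cells did not overlap between them, as in 2.83% of all genes. The median log2 fold of the 9 genes of the list with a fold was -0.71 and that of all genes tested was -0.19.

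OHC-like cells were higher than WT_P60 SCs in 2 of 10 (Cdh1 and Nectin1; 20.9% of all genes) and lower in 1 (Cldn14; 11.6%). Nectin1 was the 1 gene without overlap (1.69% of all genes). The list median was 0.45 and that of all genes 0.43. Nascent HCs were higher in 3 (Cdh1, Cdh2 and Nectin1; 19.7%) and lower in 1 (Cldn14; 10.4%), and SCs failing to become HCs were higher in 3 (Cdh2, Nectin1 and Nectin2; 17.9%) and lower in 0 (8.29%). For these shares the list stood near the background.

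Compared with the WT_P30 OHCs, OHC-like cells were higher in 4 of 10 (Cdh1, Nectin1, Cldn9 and Epcam), against 25.8% of all genes, and lower in 1 (Cldn14), against 9.47%. Cdh1 was the 1 without overlap, against 1.02%. The median log2 fold of all genes in this comparison was 0.69, and relative to it the folds were at least 9.29 for Cdh1, 4.63 for Nectin1, 1.77 for Cldn9, 1.76 for Epcam and -3.81 for Cldn14. OHC-like cells were higher than SCs failing to become HCs in 1 (Nectin1; 12.9%) and lower in 2 (Cdh2 and Epcam; 12.8%), and higher than nascent HCs in 0 (5.22%) and lower in 1 (Cdh2; 6.56%). The comparisons with WT_P60 SCs share these cells as their reference, and those of OHC-like cells share the OHC-like cells.

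**Figure D4:**
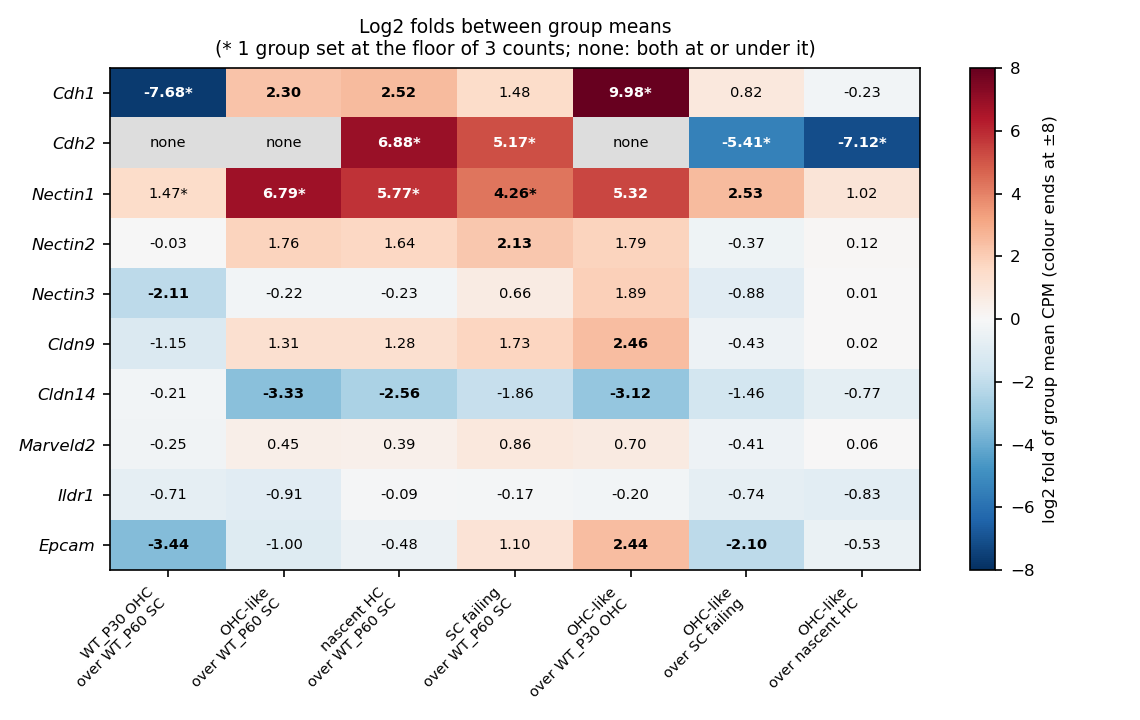
Log2 folds of group mean CPM for the 10 genes (rows) in the 7 comparisons (columns), in bold past the threshold of 2, with an asterisk where 1 group was set at the floor of 3 counts. Cdh1 is -7.68 in WT_P30 OHCs over WT_P60 SCs and 9.98 in OHC-like cells over WT_P30 OHCs, while Marveld2 and Ildr1 stay between -0.91 and 0.86.

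A further 62 genes of the same junctions were listed, of which 40 reached the level for comparison. Of these, 16 were lower in WT_P30 OHCs than in WT_P60 SCs (21.8% of all genes were) and 6 higher (15.1%), with a median log2 fold of -1.09 against -0.19 over all genes. OHC-like cells were higher than WT_P30 OHCs in 22 of 40 (25.8% of all genes) and lower in 4 (9.47%), with a median of 2.59 against 0.69. Against WT_P60 SCs they were higher in 12 (20.9%) and lower in 6 (11.6%), with a median of 0.44 against 0.43. In SCs failing to become HCs 16 of 40 were higher than in WT_P60 SCs (17.9%) and 0 lower (8.29%), with a median of 1.34 against 0.34.

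Among the claudins, which form the sealing strands, Cldn3 was the other gene whose OHC-like cells lay entirely above the OHCs. It ran from 85.7 to 1420 CPM in OHC-like cells, with a median of 922, and had no read in the 17 WT_P30 OHCs, which makes it at least 1905-fold higher. In WT_P60 SCs 5 of 16 had it, with a mean of 14.3 CPM, and the OHC-like log2 fold over them was 5.83. Cldn4 had no read in either wild-type group, and it appeared in 7 of 15 SCs failing to become HCs, 7 of 16 nascent HCs and 3 of 11 OHC-like cells. Cldn23 was at a mean of 0.610 CPM in WT_P30 OHCs and between 74.6 and 385 CPM in the other groups. Cldn8 was low throughout, at 16.8 CPM in WT_P60 SCs, 18.1 in SCs failing to become HCs and under 0.01 CPM in the other 3 groups.

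Of the tight junction membrane proteins, F11r (junctional adhesion molecule A) had no read in the WT_P30 OHCs and a mean of 78.5 CPM in OHC-like cells. Marveld3 and Lsr (angulin-1, which like Ildr1 serves tricellular junctions) were at 0.598 and 2.26 CPM in WT_P30 OHCs, and at 25.3 and 29.5 CPM in OHC-like cells. Ocln, occludin, went the other way between the wild-type groups, with 109 CPM in WT_P30 OHCs and 25.6 in WT_P60 SCs, and reached 209 CPM in OHC-like cells.

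The cytoplasmic plaque of the tight junction held genes that were high in WT_P30 OHCs. Cgn, cingulin, had a mean of 884 CPM there (113 to 1872, median 775), 189 CPM in WT_P60 SCs and 65.9 CPM in OHC-like cells. Mpdz, a scaffold with many PDZ domains, had 528 CPM in WT_P30 OHCs, 56.4 in WT_P60 SCs and 71.0 in OHC-like cells. OHC-like cells lay below the OHCs by log2 folds of -3.75 for Cgn and -2.89 for Mpdz. The polarity genes Pard6b and Pard3 were instead higher in OHC-like cells than in the OHCs, by 5.03 and 2.59.

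At the adherens plaque, Ctnnd1 (p120-catenin, which binds the tail of classical cadherins) had a mean of 46.3 CPM in WT_P60 SCs and 0.513 CPM in WT_P30 OHCs, with no overlap between them. OHC-like cells, at 4.84 CPM, lay between these groups. Ctnna1 (alpha-E-catenin) and Vcl (vinculin) were at 25.3 and 9.43 CPM in WT_P30 OHCs, 340 and 96.2 in WT_P60 SCs, and 137 and 94.3 in OHC-like cells. Ctnna2 (alpha-N-catenin) was instead detected in 6 of 17 WT_P30 OHCs and had no read in WT_P60 SCs.

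The remaining roles were sparser. Of the other cadherins, Cdh13 and Cdh4 had no read in WT_P60 SCs, and were at 20.9 and 7.73 CPM in WT_P30 OHCs and 20.2 and 9.89 CPM in OHC-like cells, each in at most 4 cells of these groups. The nectin-like genes Nectin4, Pvr and Cadm1 had no read in WT_P30 OHCs and were at 46.9, 28.1 and 12.1 CPM in OHC-like cells. Cadm4 had a mean of 14.4 CPM in OHC-like cells, with a median of 1.21 and a highest cell at 93.2 CPM. Among the desmosome genes, Perp had no read in WT_P30 OHCs, 108 CPM in WT_P60 SCs and 26.8 CPM in OHC-like cells, and Dsg2 had 0.00756, 34.3 and 6.45 CPM in the same order. Dsp, desmoplakin, had no read in either wild-type group and appeared in 10 of the 15 SCs failing to become HCs. Pkp3 (plakophilin 3) was at 34.7 CPM in SCs failing to become HCs and at 0.199 CPM in OHC-like cells.

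**Figure D5:**
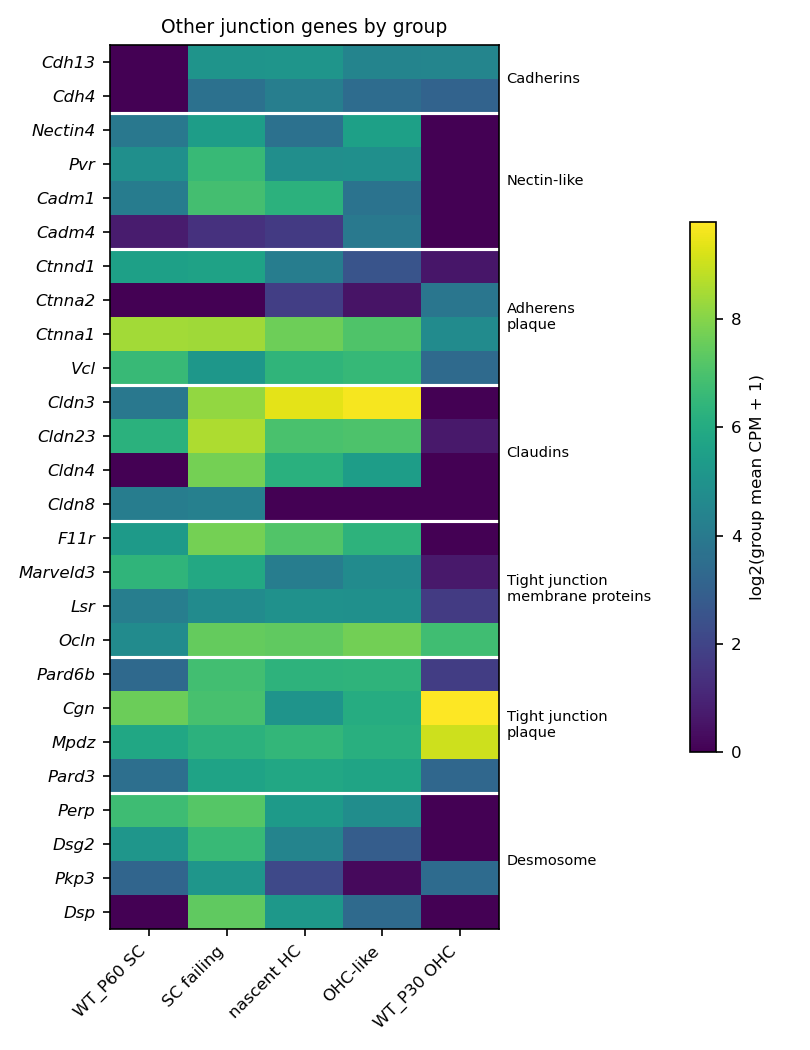
Colour gives log2 of the group mean CPM plus 1 for the 26 other junction genes past the threshold that are named, in rows by role, with the 5 groups as columns. In the WT_P30 OHC column most roles are dark, and Cgn at 884 CPM and Mpdz at 528 CPM are bright.

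The genes most like each of Cdh1, Cdh2, Nectin1 and Cldn9 over the 75 cells were taken by Spearman's rho. The cells share groups, library series and depth, so these values describe the table and carry no p. For Cdh1 they were Anxa4 (rho 0.85), Cldn3 (0.81) and Mycl (0.77), of which Cldn3 and Mycl had no read in WT_P30 OHCs and Anxa4 a mean of 0.0089 CPM. For Cdh2 they were P2ry1 (0.80), Dsp (0.71) and Dact2 (0.66), each without a read in WT_P60 SCs. Nectin1 had Krt7 (0.76), Inka2 (0.75) and Mapk12 (0.75), and Cldn9 had Spint2 (0.79), Slc27a2 (0.77) and Pdia3 (0.76). Over the 42 cells of Fgfr3-Atoh1-Ikzf2-DTR mice alone, P2ry1 was again first for Cdh2 (0.79), while the first for Cdh1 was Prrt3 (0.64), for Nectin1 Atxn2l (0.62) and for Cldn9 Rpn2 (0.75).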

How the data were processed

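RNA of 75 hand-picked cochlear cells was amplified with a Smart-Seq kit and sequenced, 1 library per cell. As deposited by the authors, the data were raw read counts of each gene in each cell, neither normalized nor pooled. Per the labels and the study's methods, FastQC 0.11.9 was run on the reads before they were trimmed with Trimmomatic 0.39, aligned to GRCm38 with HISAT2 2.1.0 and counted with HTSeq 0.10.0. StringTie 1.3.5 is also named. The strand setting and the annotation release are not given in the sources used here. A row for WPRE, a viral element with 0.0254% of counts, was left out, which left 55291 genes.

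The 10 genes and all lists of genes, markers and alternatives were chosen with earlier results of these data known. Counts were divided by library sizes scaled by TMM (edgeR 4.0.16, R 4.3.3) to give CPM. Genes with a mean of 10 CPM or more in at least 1 group were compared (12104). Group means were compared over 7 pairs of groups, and a gene was called past a log2 fold of 2. A group whose mean was under 3 counts per library was set at that floor, and no fold was given where both were. No test was run, since each group counts as 1 sample: cells are not replicates and their mice are not named. Levels were compared between genes only per kb of union exon length (GENCODE M21). Detection means 1 CPM or more of the unscaled library size. Cells with Cldn9, Cldn14, Marveld2 and Ildr1 found together were counted at 1 CPM on the TMM scale instead. The named genes were the 10, up to 4 further junction genes of each role with the largest fold among those called between the OHCs, WT_P60 SCs and OHC-like cells, and the 3 genes most like each of Cdh1, Cdh2, Nectin1 and Cldn9.

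Libraries whose labels shared the opening part of a library code were taken as a library series. This grouping was inferred here from the codes. Each wild-type group had its own and the 42 other cells fell into 5. The fold computation was checked on simulated counts. Alternatives were no scaling, DESeq2 1.42.0 size factors, TMMwsp, summed counts, medians over cells, no filter or a filter of 50 CPM, a log2 fold of 1, thinning of all cells to 4264780 counts, leaving out each cell in turn, OHC-like cell 4 or 7 cells with a low mapping rate, and folds within library series. Other steps used python 3.11.15, numpy 2.4.6, pandas 2.3.3, scipy 1.17.1 and matplotlib 3.10.9. Promoter windows came from RefSeq (GRCm38.p6).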

Additional observations from a re-analysis of the deposited data

How the results depend on the processing

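Member folds past the threshold kept their direction under each scaling, with summed counts and thinning, and with medians where a fold could be given. With medians both groups were under the floor for Cdh2 in nascent HCs against WT_P60 SCs and against OHC-like cells. The same held for Nectin1 in SCs failing to become HCs against WT_P60 SCs, so these folds were not given. Folds short of it turned in places, and between the wild-type groups DESeq2 size factors gave 0.36 for Nectin2, 0.24 for Cldn14 and 0.19 for Marveld2, where TMM gave -0.03, -0.21 and -0.25. The following counts of members past the threshold moved by over 1.5 times. With unscaled library sizes, 1 was lower in SCs failing to become HCs than in WT_P60 SCs, where the main count was 0. With DESeq2 size factors, 2 were higher in OHC-like cells than in WT_P30 OHCs in place of 4, and with TMMwsp 1 was higher than in WT_P60 SCs in place of 2. With medians over cells, SCs failing to become HCs had 1 lower than WT_P60 SCs, and OHC-like cells had 0 lower than nascent HCs. A filter of 50 CPM left 1 member higher than in WT_P60 SCs in OHC-like cells, in nascent HCs and in SCs failing to become HCs, 0 higher and 1 lower in OHC-like cells than in SCs failing to become HCs, and 0 lower than in nascent HCs, since Cdh2 and Nectin1 were then not compared. With a log2 fold of 1, WT_P30 OHCs had 1 higher than WT_P60 SCs, OHC-like cells 4 higher and 2 lower, nascent HCs 5 higher, SCs failing to become HCs 6 higher and 1 lower, and OHC-like cells had 1 higher than nascent HCs. Smaller moves included those from 3 to 2 lower in WT_P30 OHCs than in WT_P60 SCs, unscaled and with DESeq2 size factors (Nectin3), and from 3 to 2 higher in SCs failing to become HCs, unscaled (Nectin2), with medians and without the 7 cells of a low mapping rate. OHC-like cells had 6 higher than WT_P30 OHCs with medians, 3 with the 50 CPM filter, and 5 without OHC-like cell 4 or without those 7 cells, in place of 4. With medians WT_P30 OHCs also had 4 lower than WT_P60 SCs, OHC-like cells 3 higher and nascent HCs 2 higher, and OHC-like cells had 3 lower than SCs failing to become HCs.

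Without OHC-like cell 4, 0 members were higher in OHC-like cells than in SCs failing to become HCs. Leaving out each cell in turn, that count lay between 0 and 1 and the count lower between 1 and 3. The count of OHC-like over nascent lay between 0 and 1 higher and between 1 and 2 lower, and that of SCs failing to become HCs lower than WT_P60 SCs between 0 and 1. Within library series, OHC-like cells had 0 higher than SCs failing to become HCs in each of 2 series, where the log2 fold of Nectin1 was -0.0019 and -0.68. Against nascent HCs they had 3 higher and 0 lower in one series (1 cell a group) and 2 lower in another. The cause was not tested.

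The median log2 fold of all genes tested depended on the scaling: between WT_P30 OHCs and WT_P60 SCs it was -0.19 with TMM, -0.05 unscaled and 0.27 with DESeq2 size factors, and between OHC-like cells and WT_P30 OHCs 0.69, 0.33 and 0.14. No paired analysis was possible because the replicate numbers only name cells and the results come from no test. Depth limits the absence of Cdh1 from the WT_P30 OHCs and of Cdh2 and Nectin1 from the WT_P60 SCs, where no read was counted. Folds of these genes against those groups rest on the floor of 3 counts per library.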
